A study of Rattus norvegicus with 8 samples.

Results

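The clock output regulators are genes that the circadian clock of the liver drives and that pass its rhythm on to metabolism. The set of 7 was chosen by name from the platform annotation, among 18183 genes with a probe set named for a single symbol: Dbp, Tef, Hlf, Nfil3, Usp2, Bhlhe40 and Bhlhe41. Each had 1 probe set. The annotation lists Hlf with 2 gene identifiers under the same symbol.

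The livers came from male rats of the outbred Sprague-Dawley strain, fed ethanol chronically (EtOH) or pair-fed a carbohydrate control diet (CHO). Rats were untreated or were given AM21, an oligonucleotide that carries locked nucleic acid (LNA) modifications and is antisense to miR-21, at 7.5 mg/kg by intraperitoneal injection. The first injection came 72 h before partial hepatectomy (PHx) and the second right after it. Surgery removed 70% of the liver, and tissue was frozen at that moment (0 h) and once more after 24 h. Crossing both diets, AM21 or no treatment, and both times gives 8 groups. Each group is 1 array, made from RNA of 3 rats (AM21) or 4 rats (untreated) pooled before labelling, which leaves rat-to-rat variation unmeasured. The same rats gave both tissues of a pool, which makes 4 matched pairs. No sham-operated rats and no control oligonucleotide were analysed here, the age of the rats and the length of feeding are not given in the labels used here, and AM21 and untreated rats have separate identifier ranges, so treatment and cohort cannot be told apart. The labels used here give no hour of day for either tissue, and all 7 genes can be rhythmic in liver. Diet, pool and hour of collection therefore cannot be told apart for any difference between pools below. Changes from 0 h to 24 h were taken within a pool at a nominal interval of 24 h, and their actual hours are not given.

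As background, the clock protein pair CLOCK and BMAL1 binds E-box elements and turns on the genes of its own repressors and of output factors. DBP, TEF and HLF are basic leucine zipper activators with a proline and acidic amino acid rich (PAR) domain, which bind D-box elements in liver genes. NFIL3 (E4BP4) binds the same elements as a repressor and usually peaks when the activators are low. BHLHE40 (DEC1) and BHLHE41 (DEC2) are basic helix-loop-helix repressors that compete at E-boxes, and Usp2 encodes a ubiquitin-specific protease with a strong daily rhythm in liver.

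RefSeq promoter windows (GRCr8, 250 bases before to 50 after the annotated start) were found for 6 of the 7 genes, all but Hlf. They were searched on both strands for the E-box CACGTG, the variant CACGTT, the D-box forms TTATGTAA and TTACGTAA, and the element read by the REV-ERB and ROR receptors (RORE). The E-box, which reads the same on both strands, was found in Tef, Bhlhe40 and Bhlhe41, starting 198, 220 and 48 bases before the start. Of all 33469 promoters of that length 6.42% hold it. The other motifs, held by 4.83%, 0.893%, 0.12% and 0.245% of promoters in the order given, had no match in these windows, and neither did any motif in Dbp, Nfil3 or Usp2. A missing match says only that these letters are not in this window. The 250 bases before the start are shown for Dbp, the gene with a diet call at 0 h, and for Tef and Bhlhe40, the genes called after PHx, which hold the E-box that Dbp lacks here. Capitals mark the E-box.
Dbp, GRCr8 chr1:105312006-105312255 (+ strand): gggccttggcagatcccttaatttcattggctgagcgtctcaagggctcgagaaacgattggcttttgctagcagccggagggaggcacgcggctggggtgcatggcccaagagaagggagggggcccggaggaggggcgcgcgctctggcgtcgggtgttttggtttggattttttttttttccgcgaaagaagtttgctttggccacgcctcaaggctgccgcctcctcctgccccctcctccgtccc
Tef, GRCr8 chr7:115206577-115206826 (+ strand): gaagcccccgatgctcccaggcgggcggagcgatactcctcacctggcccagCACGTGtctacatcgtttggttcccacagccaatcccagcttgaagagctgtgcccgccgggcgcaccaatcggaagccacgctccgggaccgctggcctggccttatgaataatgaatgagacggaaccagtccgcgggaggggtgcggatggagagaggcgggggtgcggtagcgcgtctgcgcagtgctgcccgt
Bhlhe40, GRCr8 chr4:143174200-143174449 (+ strand): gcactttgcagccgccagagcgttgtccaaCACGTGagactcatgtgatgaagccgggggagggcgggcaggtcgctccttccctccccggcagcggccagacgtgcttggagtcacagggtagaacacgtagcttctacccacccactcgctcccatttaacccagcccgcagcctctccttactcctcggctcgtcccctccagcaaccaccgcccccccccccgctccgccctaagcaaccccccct

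Values are log2 intensities summarised by RMA, so a difference of 1 is a doubling, and levels of different probe sets are not compared with each other. Differences are given ± SE from limma fits across 8701 genes with a mean level of at least 5, with Benjamini-Hochberg adjustment over all of them and a threshold of 0.05. Of the 7 genes 5 reached that level on average. Hlf, at 2.83 to 3.47, and Bhlhe41, at 3.57 to 4.08, were under it on all 8 arrays and were not tested.

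The first pattern set out was a diet difference at the time of operation. Before PHx the activator genes Dbp and Tef and the protease gene Usp2 were lower in ethanol-fed than in pair-fed liver, and the repressor gene Nfil3 was higher, in both the untreated and the AM21 pairs. Of these 4 differences, the one in Dbp passed the test.

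Dbp, the PAR bZIP gene named for a site in the albumin promoter, had a level of 8.75 in pair-fed untreated and 8.53 in pair-fed AM21 liver at 0 h. In ethanol-fed liver at 0 h it was 6.04 in the untreated and 6.31 in the AM21 pool. Both ethanol-fed arrays lay far below both pair-fed arrays. At 24 h the levels were 6.20 and 7.32 in the pair-fed untreated and AM21 pools, and 5.91 and 6.09 in the ethanol-fed ones. The ethanol-fed arrays were thus low at both times, and the pair-fed untreated array came down close to them. The mean at 0 h was 6.18 ± 0.19 in ethanol-fed and 8.64 ± 0.15 in pair-fed liver (SD, n = 2 arrays each). The fitted difference was -2.46 ± 0.28, which is 5.51-fold lower (limma, adjusted p = 0.0196), and ranked 18th by p among 8701 genes. At 24 h it was -0.76 ± 0.28 and did not pass (adjusted p = 0.393).

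Tef, the thyrotroph embryonic factor gene, had 0 h levels of 6.49 and 6.65 in the pair-fed untreated and AM21 pools and of 5.63 and 5.74 in the ethanol-fed pools. The diets did not overlap at 0 h. At 24 h the levels were 5.22 and 5.32 in the pair-fed and 5.51 and 5.23 in the ethanol-fed pools, which overlapped. The difference at 0 h was -0.88 ± 0.14 (1.84-fold lower), just outside the threshold (limma, adjusted p = 0.0526), and at 24 h it was 0.10 ± 0.14 (adjusted p = 0.886). With each array centred on its median, the 0 h difference of Tef passed (-0.91 ± 0.14, limma adjusted p = 0.0434). With no level filter it did not (limma, adjusted p = 0.160). Over left-out arrays it ran from -0.97 to -0.79.

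Usp2 had 0 h levels of 7.44 and 7.21 in the pair-fed untreated and AM21 pools, and of 6.25 and 5.74 in the ethanol-fed pools. At 24 h the pair-fed levels were 5.66 and 6.35 and the ethanol-fed levels 6.47 and 6.19. The diets stood apart at 0 h and were interleaved at 24 h. The difference at 0 h was -1.33 ± 0.27 (2.52-fold lower, adjusted p = 0.0833) and at 24 h 0.32 ± 0.27 (adjusted p = 0.732), and neither passed limma's test. From the 4 arrays of 0 h alone the difference passed, with the same size (limma, adjusted p = 0.0161), and also without either pair-fed array of 24 h (adjusted p = 0.0270 for each). With no level filter it did not pass (limma, adjusted p = 0.1985). Over left-out arrays it ran from -1.62, without the ethanol-fed untreated array of 0 h, to -1.05, without the ethanol-fed AM21 array of 0 h.

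Nfil3, the repressor at D-boxes, ran the other way. Its 0 h levels were 6.46 and 6.77 in the pair-fed untreated and AM21 pools and 7.60 and 7.51 in the ethanol-fed pools. At 24 h they were 7.25 and 6.73 in the pair-fed and 7.84 and 7.24 in the ethanol-fed pools. Both ethanol-fed arrays lay above both pair-fed arrays at 0 h, as for 26.6% of all genes, and the diets overlapped at 24 h. The difference was 0.94 ± 0.22 at 0 h (1.92-fold, adjusted p = 0.117) and 0.55 ± 0.22 at 24 h (adjusted p = 0.443) by limma, and neither passed. Without the pair-fed AM21 array of 0 h, the 0 h difference was 1.29 ± 0.20 and passed (adjusted p = 0.0387), and without the pair-fed untreated array of 0 h it was 0.58 ± 0.20 and did not (adjusted p = 0.311).

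Bhlhe40 showed little of this pattern. Its 0 h levels were 8.61 and 9.39 in the pair-fed and 8.67 and 8.58 in the ethanol-fed untreated and AM21 pools, so the diets overlapped. At 24 h they were 7.62 and 7.76 in the pair-fed and 7.95 and 7.98 in the ethanol-fed pools. The differences, -0.38 ± 0.21 at 0 h and 0.27 ± 0.21 at 24 h, did not pass (limma, adjusted p = 0.430 and 0.707).

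Hlf, the third PAR bZIP activator, had 0 h levels of 3.47 (untreated) and 3.28 (AM21) with the control diet, against 2.83 and 3.01 with ethanol. Bhlhe41 had 4.08 and 3.72 against 3.74 and 3.75. At 24 h, in the same order, Hlf was at 3.09 and 3.28 against 3.03 and 3.27, and Bhlhe41 at 3.57 and 3.63 against 3.80 and 3.67. RMA values carry no detection call, so these low values are not read as differences.

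**Figure D1:**
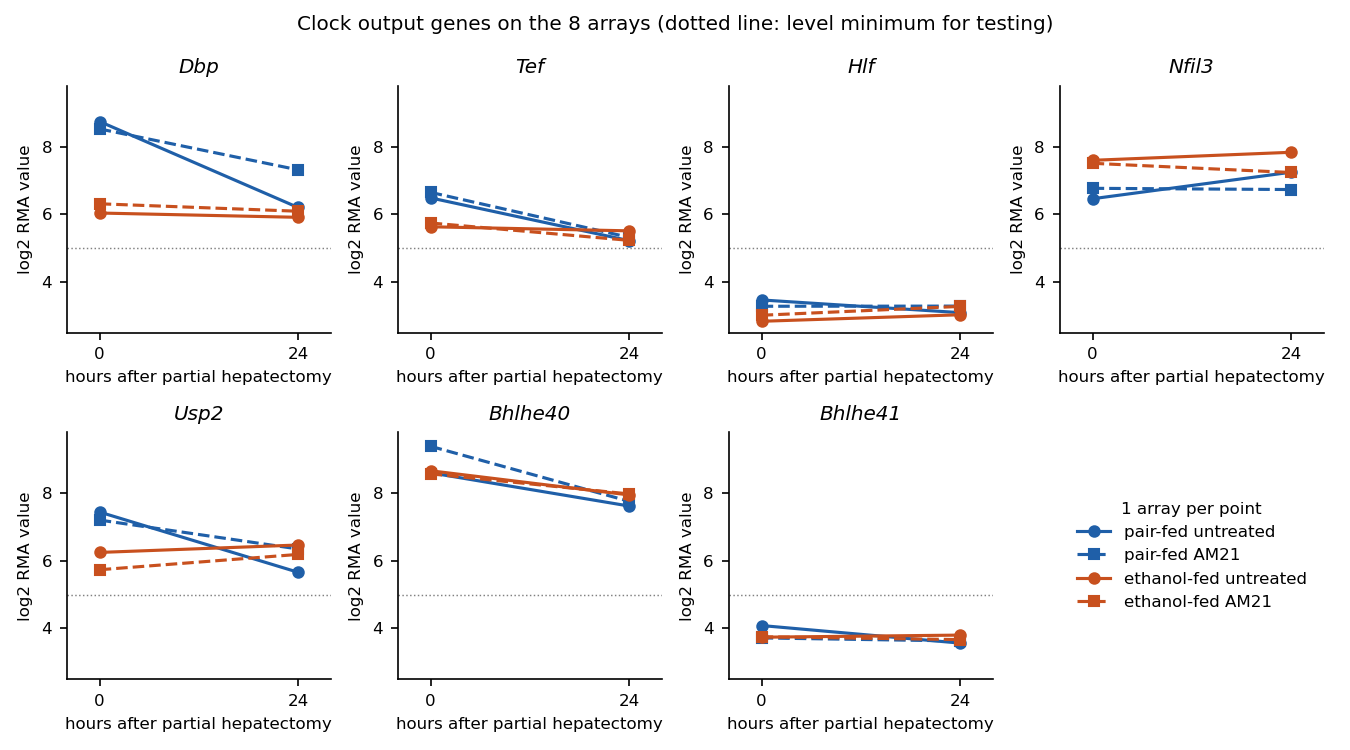
Log2 RMA value of each of the 7 genes (vertical axis) at 0 h and 24 h after PHx (horizontal axis), 1 array per point, with blue for pair-fed and orange for ethanol-fed pools and dashed lines for AM21. The blue points of Dbp, Tef and Usp2 lie above the orange ones at 0 h (8.53 and 8.75 against 6.04 and 6.31 for Dbp), and Hlf and Bhlhe41 lie under the dotted level minimum of 5.

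In all, 1 of the 5 tested genes was called at 0 h and 0 at 24 h, where the calls over all 8701 genes were 56 (0.644%) and 6 (0.069%). At an unadjusted p under 0.05, 1396 genes (16%) differed at 0 h and 940 (10.8%) at 24 h. With 2 arrays against 2, the diets did not overlap at 0 h for 3 genes that were lower and 1 that was higher with ethanol, which holds for 19.6% and 26.6% of all genes. At 24 h this was so for Dbp, lower, and Bhlhe40, higher, where 19% and 23.4% of all genes were. The median difference of the 5 genes was -0.88 at 0 h and 0.27 at 24 h, against 0.02 at both times over all genes. The call of Dbp at 0 h depended on the setting. Its adjusted p was 0.0509 with no level filter. Without the ethanol-fed untreated, the ethanol-fed AM21 or the pair-fed untreated array of 0 h it was 0.167, 0.114 and 0.128, with differences of -2.50, -2.42 and -2.09. Averaged over both times, 0 of the 5 genes passed limma's test for diet (40 of all genes, 0.46%, passed, and 1337, 15.4%, had an unadjusted p under 0.05). Dbp was at -1.61 ± 0.36 (adjusted p = 0.0995) and Nfil3 at 0.74 ± 0.16 (adjusted p = 0.0994). When the arrays of each pool were averaged first, which serves as a replicate block, both passed, at adjusted p = 0.00937 and 0.0419, where 104 genes did.

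**Figure D2:**
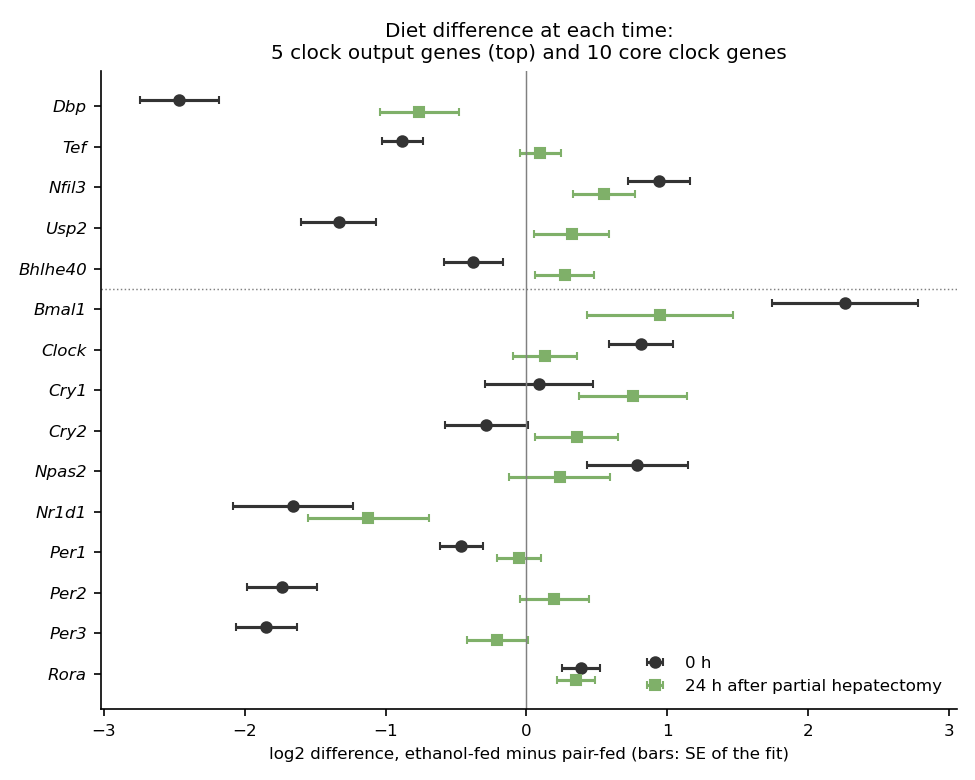
Fitted log2 difference, ethanol-fed minus pair-fed (horizontal axis, bars are SE of the fit), for the 5 tested clock output genes and 10 core clock genes at 0 h (circles) and 24 h (squares). Dbp lies at -2.46 at 0 h and -0.76 at 24 h, and Tef and Usp2 lie below 0 at 0 h and slightly above it at 24 h.

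The response to PHx was next set out by pool. In pair-fed liver Dbp, Tef, Usp2 and Bhlhe40 all fell within 24 h, and in ethanol-fed liver Bhlhe40 alone of the 5 passed. Dbp changed by -2.54 in the pair-fed untreated and -1.21 in the pair-fed AM21 pool, whereas its changes with ethanol were -0.13 (untreated) and -0.22 (AM21). Usp2 changed by -1.78 and -0.85 with the control diet, but by 0.22 and 0.45 with ethanol, so its direction differed between the diets. Tef changed by -1.26 and -1.33 against -0.12 and -0.51. Bhlhe40 was lower at 24 h in 4 of 4 pools, as were Dbp and Tef and as 22.8% of all genes were. Its changes were -0.98 and -1.63 for the control diet, then -0.71 and -0.59 for ethanol. Nfil3 had no common direction, with 0.78 and -0.04 for the control diet, then 0.24 and -0.27 for ethanol.

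**Figure D3:**
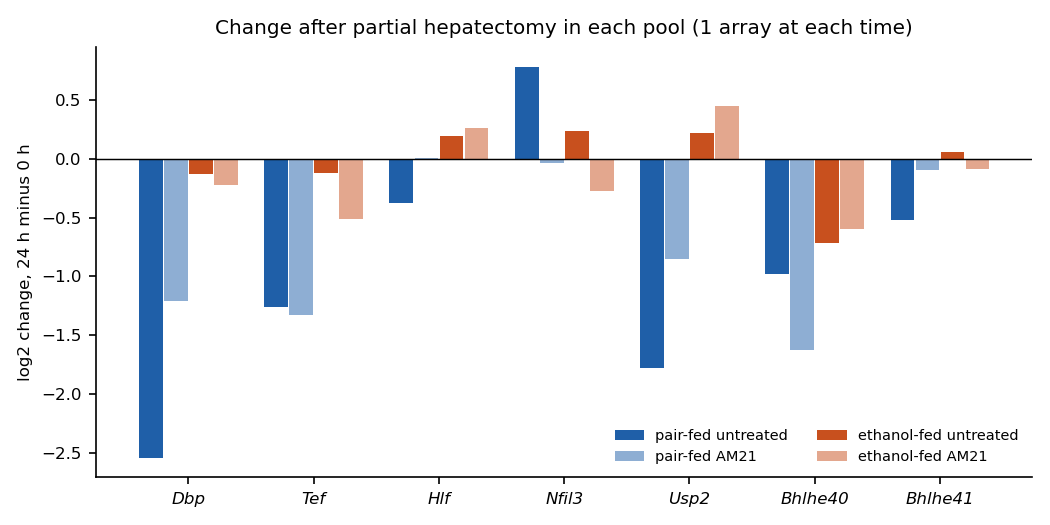
Log2 change from 0 h to 24 h after PHx (vertical axis) of each of the 7 genes, with a bar for each pool, each the difference of 2 arrays. The bars of Dbp and Usp2 reach -2.54 and -1.78 in the pair-fed untreated pool, while the ethanol-fed bars of Usp2 lie above 0.

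With the 4 pools together, Bhlhe40 and Tef passed. Bhlhe40 fell by 0.98 ± 0.17 (limma, adjusted p = 0.00886) and Tef by 0.81 ± 0.21 (adjusted p = 0.0328). Dbp, at -1.03 ± 0.39 (adjusted p = 0.0934), Usp2, at -0.49 ± 0.36 (adjusted p = 0.343), and Nfil3, at 0.18 ± 0.17 (adjusted p = 0.478), did not. Thus 2 of 5 tested genes were lower, where 12.8% of all genes were. For both, the 4 arrays of 24 h lay below the 4 arrays of 0 h, as for 13.7% of all genes. Bhlhe40 passed without any single pool, with adjusted p from 0.0140 to 0.0378. Tef lost the call without the pair-fed untreated (adjusted p = 0.113), the pair-fed AM21 (0.109) or the ethanol-fed AM21 pool (0.0602), and with no level filter (0.0561). The count over all genes was 2445, and it was 1471 without the ethanol-fed AM21 pool and 1568 without the ethanol-fed untreated pool. Markers of dividing cells (Mki67, Top2a, Ccnb1 and Cdk1) rose in the same livers, from means of 4.15 to 4.53 at 0 h to means of 8.52 to 9.50 at 24 h in pair-fed pools and from 5.33 to 5.97 to 8.20 to 8.36 in ethanol-fed pools. All 4 passed the test for PHx. The pair-fed means of 0 h lay under the level minimum of 5, so this list reached it through its higher arrays. The count of 4 is therefore not read as support. Markers of other cells moved in the same contrast. The neutrophil genes S100a8 and S100a9 rose by 3.09 ± 0.37 and 2.01 ± 0.32 (limma, adjusted p = 0.00249 and 0.00593), 2 of 2 tested. No neutrophil marker of the list had a mean above 6.07 over the 8 arrays. With a rise of that size, S100a8 lay on average under the level minimum at 0 h and reached it through the arrays of 24 h. The 2 of 2 is therefore not read as support. The stellate cell genes Lrat and Reln changed by -0.96 ± 0.17 and -0.57 ± 0.09, 2 of 3 tested, and the endothelial gene Oit3 by -0.73 ± 0.14, 1 of 2. The Kupffer cell genes Marco and Clec4f changed by 1.06 ± 0.10 and -0.66 ± 0.14, 2 of 6. All of these passed the threshold, as 15.3% of all genes did by rising and 12.8% by falling. These small counts are not read as a result about the cell types. The part of these cells in the results was not tested. In bulk tissue, fewer cells of a type and less RNA per cell cannot be told apart.

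Contrasts within each diet were chosen after seeing the data. Their fits have 1 residual degree of freedom, and level filter, block and left-out pools were not varied for them. In the pair-fed pools Dbp fell by 1.88 ± 0.23 (3.67-fold, adjusted p = 8.17e-04), Usp2 fell by 1.32 ± 0.16 (adjusted p = 9.57e-04), Tef fell by 1.30 ± 0.14 (adjusted p = 5.31e-04) and Bhlhe40 fell by 1.30 ± 0.17 (adjusted p = 0.00115), all by limma. Nfil3 was at 0.37 ± 0.14 (adjusted p = 0.0944). That is 4 of 5, where 11.8% of all genes fell. In the ethanol-fed pools Bhlhe40 fell by 0.65 ± 0.17 (adjusted p = 0.0410), 1 of 5, where 5.86% of all genes fell. Dbp was there at -0.17 ± 0.23, Tef at -0.32 ± 0.14 and Usp2 at 0.34 ± 0.16, and these did not pass (adjusted p = 0.681, 0.200 and 0.229). The pair-fed fall and the diet difference at 0 h share the pair-fed arrays of 0 h, so a high level on those arrays enters both.

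Whether the response differed between the diets was tested as an interaction. The change of Usp2 was higher in ethanol-fed than in pair-fed pools by 1.65 ± 0.23 (limma, adjusted p = 0.0266), and it was 1 of 5 tested genes and 1 of 46 (0.529%) over all genes that passed, of which 6 (0.069%) had a higher change with ethanol. Dbp followed at 1.70 ± 0.32 (adjusted p = 0.0781) and Tef at 0.98 ± 0.21 (adjusted p = 0.102), and neither passed. Bhlhe40 was at 0.65 ± 0.24 and Nfil3 at -0.39 ± 0.20 (adjusted p = 0.350 and 0.569). The call of Usp2 was lost with no level filter (limma, adjusted p = 0.151) and with no replicate block (adjusted p = 0.178), settings that left 3 and 2 calls over all genes. This fit has 1 residual degree of freedom.

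AM21 gave no call. The fitted differences over the 8 arrays, AM21 minus untreated, were 0.34 ± 0.36 for Dbp, 0.02 ± 0.20 for Tef, -0.22 ± 0.16 for Nfil3, -0.08 ± 0.35 for Usp2 and 0.22 ± 0.18 for Bhlhe40. By limma 0 of 8701 genes (0%) passed, and 537 (6.17%) had an unadjusted p under 0.05, with none of the 5 genes among them. Single pairs were less even. Among pair-fed arrays at 24 h, Dbp was higher with AM21 by 1.11, Usp2 by 0.69, and Nfil3 was lower (-0.51), while at 0 h the same pairs differed by -0.22, -0.24 and 0.31. These are differences of 1 array against 1, with no replicate check. The interaction of AM21 with PHx was -0.67 ± 0.20 for Nfil3, 0.58 ± 0.23 for Usp2 and 0.62 ± 0.32 for Dbp (adjusted p = 0.565, 0.679 and 0.752), where 0 of 8701 genes (0%) passed limma's test and 605 (6.95%) had an unadjusted p under 0.05. Unadjusted, the p of Nfil3 was 0.0117 and that of Usp2 0.0370.

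The core clock genes gave a reference for these outputs. Of 13 listed, 11 had a probe set named alone and 10 were tested. At 0 h the period genes Per2 and Per3, repressors in the feedback loop, were lower in ethanol-fed liver, where 0.184% of all genes were. Per3 had levels of 6.80 and 6.34 in the pair-fed and 4.71 and 4.73 in the ethanol-fed untreated and AM21 pools at 0 h (-1.85 ± 0.22, limma adjusted p = 0.0221). Both ethanol-fed values lay under the level minimum of 5, and the mean of Per3 reached it through the pair-fed arrays of 0 h, where it was high. Counts over the list that include Per3 are therefore not read as support. Per2 had 6.56 and 6.80 against 5.33 and 4.56 (-1.73 ± 0.25, adjusted p = 0.0412). Like Dbp, both were low in ethanol-fed liver at the start. Both calls were lost with no level filter (adjusted p = 0.0595 and 0.113) and without the ethanol-fed untreated 0 h (0.188 and 0.128), ethanol-fed AM21 0 h (0.114 and 0.162) or pair-fed untreated 0 h array (0.128 and 0.106). That of Per2 was lost also without the pair-fed AM21 0 h array (0.0650) and without the ethanol-fed untreated or AM21 24 h array (0.0662 for each).

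Bmal1, the activator, went the other way, as Nfil3 did. Its 0 h levels were 4.26 and 5.94 in the pair-fed untreated and AM21 pools and 7.53 and 7.19 in the ethanol-fed pools. The difference of 2.26 ± 0.52 did not pass over all arrays (adjusted p = 0.114). It passed without the pair-fed AM21 0 h array (3.35 ± 0.19, adjusted p = 0.00509) and from the 4 arrays of 0 h alone (adjusted p = 0.0499). Without the pair-fed untreated 0 h array it was 1.17 ± 0.19 and did not pass (adjusted p = 0.152). The values of the other clock genes at 0 h were -1.66 ± 0.43 for Nr1d1, which encodes the repressor REV-ERB alpha, 0.81 ± 0.23 for Clock, 0.79 ± 0.36 for Npas2, -0.46 ± 0.16 for Per1, 0.39 ± 0.14 for Rora, -0.29 ± 0.29 for Cry2 and 0.09 ± 0.38 for Cry1, and none of these passed over all arrays. Clock passed without the pair-fed AM21 0 h array (1.24 ± 0.15, adjusted p = 0.0265) and was at 0.39 ± 0.15 without the pair-fed untreated one (adjusted p = 0.351). At 24 h 0 of the 10 passed. The median of the 10 differences was -0.10 at 0 h and 0.22 at 24 h.

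The levels of Nr1d1 at 0 h and 24 h were 6.99 and 6.66 in the ethanol-fed untreated pool but 8.75 and 8.40 in the ethanol-fed AM21 pool. In pair-fed liver they were 9.52 and 8.45 untreated and 9.53 and 8.85 with AM21. The AM21 effect of 0.98 ± 0.30 for this gene did not pass (limma, adjusted p = 0.763). After PHx Per1 fell by 0.70 ± 0.14 (limma, adjusted p = 0.0123) and Nr1d1 by 0.61 ± 0.14 (adjusted p = 0.0216), 2 of 10, where 12.8% of all genes fell. Nr1d1 lost this call without the pair-fed AM21 pool (adjusted p = 0.0737) and with no replicate block (0.170). The interaction of PHx with diet passed for Per2 (1.93 ± 0.21, adjusted p = 0.00962; 0.0768 with no level filter and 0.158 with no replicate block), 1 of 10, where 0.529% of all genes passed. Per3 was at 1.64 ± 0.28 (adjusted p = 0.0580). In the contrasts added within diets, 5 of 10 fell in pair-fed pools (Per3 -1.53, Per2 -1.45, Per1 -0.91, Nr1d1 -0.87 and Cry2 -0.79) and 2 rose (Bmal1 by 1.12 and Clock by 0.75), where 11.8% and 14.3% of all genes did, and 0 of 10 passed limma's test in ethanol-fed pools. Ciart, a repressor of CLOCK and BMAL1, was under the level minimum on all 8 arrays and was not tested. Its 2 highest values, 4.81 and 4.49, were in pair-fed liver at 0 h, and such low values are not read as differences.

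**Figure D4:**
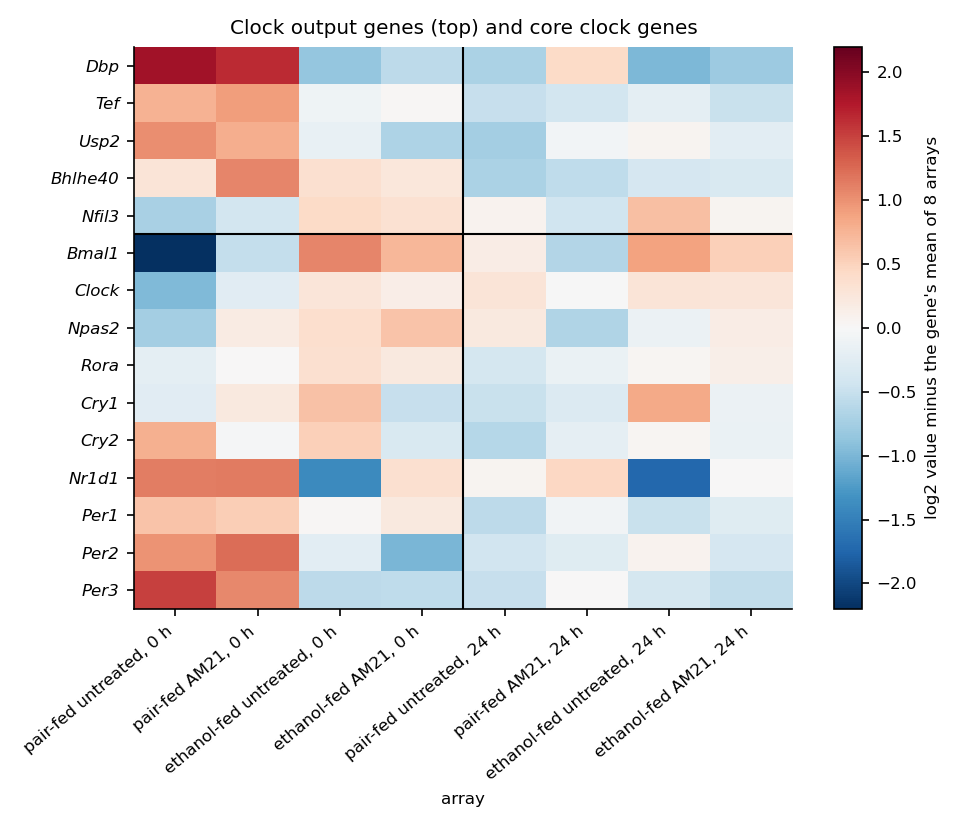
Log2 value minus the gene's mean over 8 arrays (colour) for 5 clock output genes and 10 core clock genes (rows) on each array (columns, 0 h left of the line). Dbp reaches 1.85 and 1.63 above its mean in the pair-fed untreated and AM21 arrays of 0 h, where Bmal1 lies 2.20 and 0.52 below its own.

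A list of 26 genes tied in the literature to the D-box factors in liver gave 25 tested genes. After PHx 7 fell and 2 rose, with a median change of -0.28 against 0.01 over all genes, where 12.8% and 15.3% of all genes did so. The largest changes were -3.99 ± 0.19 for Rgs16, a regulator of G protein signalling, 3.60 ± 0.18 for the drug efflux pump gene Abcb1b, -2.93 ± 0.35 for Cyp2b1, -1.49 ± 0.16 for the fatty acid sensor Ppara, -1.29 ± 0.23 for the hormone gene Fgf21 and -1.11 ± 0.26 for Cyp2c11. All 6 passed limma's test with the 4 pools. Cyp2c11 did not without the ethanol-fed AM21 (adjusted p = 0.0602) or the pair-fed untreated pool (0.0555). In the added contrasts, 13 fell and 4 rose in pair-fed pools, where 11.8% and 14.3% of all genes did, and 7 fell and 2 rose in ethanol-fed pools, where 5.86% and 7.16% did. Of those not yet named, the transferrin receptor gene Tfrc rose by 1.00 ± 0.13 and Cyp2a2 fell by 0.64 ± 0.08 over the 4 pools, and both passed within each diet. Gstt2 fell by 0.45 ± 0.13 over the 4 pools (limma, adjusted p = 0.0381), a call lost with no level filter (0.0820) and without the pair-fed untreated (0.116), pair-fed AM21 (0.116) or ethanol-fed untreated pool (0.0899). In pair-fed pools Nampt, of NAD synthesis, changed by -1.17 ± 0.15, Cyp3a2 by -0.96 ± 0.19, Gstt2 by -0.68 ± 0.15, Nr1i3, the gene of the receptor CAR, by -0.64 ± 0.15, the liver glycogen synthase gene Gys2 by -0.59 ± 0.16, Cyp3a18 by -0.59 ± 0.14, the lipase gene Lpl by 0.79 ± 0.15 and Cyp4a1 by 0.63 ± 0.17, and these passed there but not in ethanol-fed pools. Ces2e passed in ethanol-fed pools (-1.23 ± 0.16) but not in pair-fed pools (-0.22 ± 0.16). For none of these did the interaction of PHx with diet pass (adjusted p from 0.0835 for Nampt upward), so their responses were not shown to differ between the diets. Por, the electron donor of the P450 enzymes, fell in pair-fed pools by 0.98 ± 0.16 (adjusted p = 0.00393), and was at 0.08 ± 0.16 in ethanol-fed pools. The interaction for Por was 1.06 ± 0.23 and did not pass (adjusted p = 0.109).

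For diet at 0 h, 0 of the 25 genes passed as lower and 4 as higher with ethanol, where 0.184% and 0.46% of all genes did. The median difference of the list was 0.15, against 0.02 over all genes, and the other 21 genes, with values on both sides of 0, did not pass. The 4 that passed were Cyp2b1 (3.73 ± 0.24), the carboxylesterase gene Ces2e (2.49 ± 0.26), the aldehyde dehydrogenase gene Aldh1a1 (1.61 ± 0.15) and Cyp4a1 (1.17 ± 0.17), with limma adjusted p from 0.00376 to 0.0414. Cyp2b1 was at 9.62 and 8.71 on the ethanol-fed untreated and AM21 arrays of 0 h. The pair-fed arrays of 0 h had 6.24 and 4.63. At 24 h it was at 3.82 and 2.86 in the pair-fed and 5.65 and 5.18 in the ethanol-fed pools. Its mean reached the level minimum through the ethanol-fed arrays of 0 h, where it was high. Its calls, and the counts here and above that include it, are therefore not read as support. Cyp2b1 is known as a target of the receptor CAR and Cyp4a1 of PPAR-alpha. These calls were not stable. Without the ethanol-fed untreated array of 0 h, 0 of 8701 genes passed, and so none of the 4 did (adjusted p from 0.0528 to 0.271). Without the ethanol-fed AM21 array of 0 h, Ces2e, Aldh1a1 and Cyp4a1 lost the call (adjusted p = 0.0892 for each). With no level filter Ces2e (0.0508) and Cyp4a1 (0.128) did. Cyp4a1 lost it also without the pair-fed untreated 0 h array (0.196) and without any single 24 h array (0.0625 to 0.0826). At 24 h Aldh1a1 was the 1 gene of the list called (1.38 ± 0.15, adjusted p = 0.0441), where 0.0575% of all genes were higher, and it lost the call with no level filter (0.127), from the 4 arrays of 24 h alone (0.0762) and without any single array other than the pair-fed ones of 0 h (0.0565 to 0.396). The interaction of PHx with diet was -1.66 ± 0.20 for Cyp2b1 (adjusted p = 0.0147; 0.114 with no level filter and 0.134 with no replicate block), where 0.46% of all genes were lower. Averaged over both times, Cyp2a1 was also higher (0.87 ± 0.12, adjusted p = 0.0322), where 0.46% of all genes were called, and it lost the call with no level filter (0.0696) and without any single array other than the pair-fed AM21 one of 0 h (0.0602 to 0.130). For diet at 0 h alone, Cyp7a1 differed by 0.02 ± 0.36. This gene starts bile acid synthesis, is a classical target of DBP and was chosen after its values were seen.

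The genes whose level over the 8 arrays was most like each member were found by Pearson correlation, among 5726 tested genes that varied by at least 0.5. For Dbp these were the acyltransferase gene Gpat4 (r = 0.976), the adaptor gene Shb (0.975) and Per3 (0.973). For Tef they were Ctif (0.981), the kinase gene Clk4 (0.973) and the glucocorticoid receptor gene Nr3c1 (0.967). For Usp2 they were Per2 (0.942), Nat8 (0.933) and Por (0.927). For Nfil3 they were Ano6 (0.982), Mfap3 (0.959) and Bsg (0.949), and for Bhlhe40 Lima1 (0.983), Phkb (0.974) and Dock9 (0.972). For the dim genes, ranked against 5727 genes, they were Malsu1 (0.971), Rbbp4 (0.931) and Eif2s2 (0.930) for Hlf and Ube2q2 (0.961), Cmip (0.954) and Fam151b (0.946) for Bhlhe41. Both dim genes lay under the level minimum on all 8 arrays, so no likeness is read from their values. The arrays share 4 pools, 2 diets and 2 times, so the values of the tested genes only describe likeness.

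The tissue label was checked against markers. The 4 hepatocyte markers found of 6 (Alb, Ttr, Fgb and Serpina1) had list means of 12.05 to 12.09 on the 8 arrays. The 3 lymphocyte markers found of 4 (Cd3e, Cd3g and Cd79b) were under the level minimum, as were Mpo and Csf3r of 4 neutrophil markers (the other two, S100a8 and S100a9, were above it on average and rose after PHx, as given above), Krt7 and Sox9 of 4 cholangiocyte markers and Des of 4 stellate cell markers. The list mean of 6 Kupffer cell markers moved with the diet, lying between 7.65 and 7.82 on the pair-fed and between 8.22 and 8.25 on the ethanol-fed arrays of 0 h, and between 7.62 and 7.87 against 8.18 and 8.40 at 24 h. Its part in the diet differences was not tested.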

How the data were processed

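Liver RNA was measured on 8 Affymetrix arrays. Per the submitters' processing notes, the deposited values are log2 values made by the authors with RMA in Affymetrix Expression Console; the sources used here give no version or genome build. RMA forces equal distributions on the arrays, which would hide a change common to most genes. Values ran from 0.481 to 13.3, with array medians from 4.11 to 4.23. Arrays give no depth, and their number limits the precision.

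Of 36685 probe sets, 18533 named 1 gene symbol (22 of them repeated it), 553 several and 17599 none. The probe set with the highest mean represented a gene (18183 genes). Genes with a mean of at least 5 were tested (8701). Fits used limma 3.58.1 in R 4.3.3. They were also run on simulated arrays with independent noise and no shared pools, which cannot check how the pools were handled. PHx and its interactions had the pool as a fixed block, since the labels' animal identifiers pair the arrays. Diet and AM21 effects used additive fits, and the diet effect at each time a fit with diet nested in time. The pool was a random block there (statmod 1.5.0), but its correlation was estimated at -0.371 and -0.244 and set to 0, so arrays were treated as independent. P-values for PHx and its interactions rest on the spread of the change between pools, which limma combines with a spread shared across genes. In the interactions and the contrasts within each diet the shared part weighs most (6.951 prior against 1 residual degree of freedom). P-values for diet and AM21 measure the spread between arrays. Both arrays of a pool counted there as separate replicates, although the same rats gave them. No p-value here measures the spread between rats.

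All 7 members, every tested core clock gene, the 6 largest PHx changes of the target list, list genes whose call differed between comparisons, and the 3 most similar genes per member were named. Members and lists were chosen with earlier results of these data known. Bmal1 was listed by its older symbol Arntl. Level filter, array centring, block, intensity trend and left-out arrays or pools were varied, though not for the contrasts within each diet.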

Additional observations from a re-analysis of the deposited data

Results flagged for a closer look

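The response of Usp2 to PHx differed between the diets by the interaction test, at 1.65 ± 0.23 (limma, adjusted p = 0.0266). Its level went down in 2 of 2 pair-fed pools, by -1.78 and -0.85, and up in 2 of 2 ethanol-fed pools, by 0.22 and 0.45. The call was lost with no level filter (adjusted p = 0.151) and with no replicate block (adjusted p = 0.178).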

How the results depend on the processing

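The count of genes called for PHx (2445) was 1133 in the ethanol-fed pools only and 1471 to 1707 when a pool was left out. For diet (40) it was 11 with no level filter, 104 with pool averages as a replicate block and 0 to 18 when an array was left out (0 without the pair-fed untreated 24 h array). For diet at 0 h (56) it was 7 with no filter, 98 from the 4 arrays alone, and 0 (without the ethanol-fed untreated 0 h array) to 223 (without the pair-fed AM21 0 h array). For diet at 24 h (6) it was 0 with no filter, 0 from the 4 arrays alone, 16 with centred arrays and 0 to 7 with an array left out. For the interaction of PHx with diet (46) it was 3 with no filter and 2 with no replicate block. For AM21 it stayed at 0. The PHx change of Nfil3 was -0.017 and that of Usp2 0.34 in the ethanol-fed pools only, reversing the sign, and Nfil3 ran from -0.024 to 0.33 over left-out pools. Uncalled values that changed sign over left-out arrays were, for diet, Bhlhe40 (-0.18 to 0.17); for AM21, Dbp (-0.070 to 0.69), Tef (-0.13 to 0.22), Usp2 (-0.48 to 0.23) and Bhlhe40 (-0.0077 to 0.37); for diet at 0 h, Bhlhe40 (-0.76 to 0.0018), Cry1 (-0.47 to 0.64) and Cry2 (-0.62 to 0.045); and for diet at 24 h, Tef (-0.10 to 0.30) and Usp2 (-0.19 to 0.84). Over all values of single genes under an alternative, 513 kept direction and side of the threshold, 89 lost a call, 13 gained one and 21 changed sign. The cause was not tested. Leaving a pool out of the interactions leaves no residual degrees of freedom, and averaging probe sets was not run, since each member has 1. With 1 array per group, small differences were not detectable.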
